A study of Mus musculus with 12 samples.

Results

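The genes described here are 10 members of the formyl peptide receptor and complement systems of the mouse: the formyl peptide receptors Fpr1 and Fpr2, the anaphylatoxin receptors C5ar1, C5ar2 and C3ar1, and the complement components C3, Cfb, C1qa, C1qb and C1qc. They were taken by symbol from a table of 31719 genes. A repeated symbol would have been chosen by its mean FPKM over the 12 libraries, the only measured value in the rule, but each symbol stood on 1 row, so that value decided none of them. The list itself was drawn up with earlier results of these data known. Of the 10 genes, 8 were above 0 in at least 1 library, and 4 (Fpr1, Fpr2, C5ar1 and C3ar1) passed the filter on low values: 1 FPKM or more in 3 or more of the 12 libraries. FPKM is a read count scaled by transcript length and by sequencing depth. The other 6 members did not pass.

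RNA sequencing was carried out on RAW264.7 cells, an established macrophage-like line derived from a mouse tumour and labelled as wild type (WT). The 4 groups of 3 libraries were untreated cells (UT), an anti-CD36 antibody at 1:100, LPS at 50 ng/ml, and the combination of LPS with the antibody. CD36 is a scavenger receptor that binds modified lipoproteins and other lipids, and LPS is the lipopolysaccharide of the outer membrane of Gram-negative bacteria, sensed through TLR4. The labels name no treatment time and no control antibody. Nor do they state that replicate libraries stem from separate cultures, so every p-value measures only the spread between these libraries, which may be technical.

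Formyl peptide receptors are G protein-coupled receptors on phagocytes that sense N-formylated peptides released by bacteria and mitochondria, and their activation drives chemotaxis and the oxidative burst. Complement is a cascade of proteins whose central component, C3, is cleaved to fragments that coat microbes and to the small peptide C3a, while C5 yields the chemoattractant C5a. C3a acts on C3ar1 and C5a on C5ar1, whereas C5ar2 binds C5a without coupling to G proteins in the usual way. Factor B, encoded by Cfb, forms the C3 convertase of the alternative pathway, and C1q, built from the products of C1qa, C1qb and C1qc, starts the classical pathway. Macrophages make several of these components themselves and carry both kinds of receptor.

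Total counts, recovered from the steps of the FPKM values, ran from 30070451 to 54137814 per library, and 14212 to 14878 genes were above 0. Of 9 macrophage markers, 8 were at 1 FPKM or more in at least 3 libraries, and the exception, Mertk, lay at or below 0.0459 FPKM. Among 8 neutrophil markers only Csf3r reached that level (mean 1.30 FPKM), with S100a9, Ly6g and Mpo at 0 in all 12 libraries. Their summed level was 1.22 to 1.36 FPKM in the untreated, 1.62 to 2.02 in the anti-CD36, 1.35 to 1.73 in the LPS and 1.45 to 1.69 in the LPS plus anti-CD36 libraries. No marker of dendritic cells (5 genes), lymphocytes (7), mast cells (4) or fibroblasts and epithelium (5) reached it. In bulk RNA of this kind, fewer cells with a transcript and less transcript per cell cannot be told apart.

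The receptor genes lie next to one another in pairs, which is why their start regions are set side by side here. In the GENCODE M21 annotation of GRCm38, Fpr1 occupied chr17:17876471-17883940 on the minus strand and Fpr2 chr17:17887824-17893952 on the plus strand, so both were read outward from start sites 3884 bases apart. C5ar1 (chr7:16246743-16259540) and C5ar2 (chr7:16234585-16244154) followed each other on the minus strand with 2588 bases between them. C3ar1 stood alone at chr6:122847138-122856161, minus strand. The following sequences run from 250 bases before to 50 bases after the start that RefSeq gives each gene on GRCm38.p6, 5′ to 3′ on the gene's own strand. For C5ar1 that start lay 202 bases inside the GENCODE gene, so most of its sequence follows the GENCODE start. Their positions are chr17:17883890-17884189 for Fpr1, chr17:17887574-17887873 for Fpr2, chr7:16259289-16259588 for C5ar1, chr7:16244105-16244404 for C5ar2 and chr6:122856108-122856407 for C3ar1. Capitals mark matches to any of the 5 motifs searched on both strands.
Fpr1: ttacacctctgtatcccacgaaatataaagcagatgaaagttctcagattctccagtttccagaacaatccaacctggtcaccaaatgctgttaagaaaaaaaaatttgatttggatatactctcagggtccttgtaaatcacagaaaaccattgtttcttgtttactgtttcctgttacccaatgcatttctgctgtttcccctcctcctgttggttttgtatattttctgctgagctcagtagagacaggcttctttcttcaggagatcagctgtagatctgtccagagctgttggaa
Fpr2: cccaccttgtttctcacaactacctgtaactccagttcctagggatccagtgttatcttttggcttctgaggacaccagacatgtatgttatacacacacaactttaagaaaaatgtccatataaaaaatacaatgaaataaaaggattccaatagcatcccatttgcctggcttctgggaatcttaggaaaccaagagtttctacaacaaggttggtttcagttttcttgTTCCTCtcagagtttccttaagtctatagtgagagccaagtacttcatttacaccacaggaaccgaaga
C5ar1: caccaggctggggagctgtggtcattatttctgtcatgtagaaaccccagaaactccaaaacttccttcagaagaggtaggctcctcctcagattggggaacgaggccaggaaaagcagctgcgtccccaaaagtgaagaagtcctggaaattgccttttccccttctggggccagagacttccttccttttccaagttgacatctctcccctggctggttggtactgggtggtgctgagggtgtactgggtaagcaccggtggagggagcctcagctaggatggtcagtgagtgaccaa
C5ar2: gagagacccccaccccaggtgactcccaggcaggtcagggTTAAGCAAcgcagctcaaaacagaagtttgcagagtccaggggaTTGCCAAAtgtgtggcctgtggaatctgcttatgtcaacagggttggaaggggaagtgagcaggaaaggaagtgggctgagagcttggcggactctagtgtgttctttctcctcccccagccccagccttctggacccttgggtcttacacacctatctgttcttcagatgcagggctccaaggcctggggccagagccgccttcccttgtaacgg
C3ar1: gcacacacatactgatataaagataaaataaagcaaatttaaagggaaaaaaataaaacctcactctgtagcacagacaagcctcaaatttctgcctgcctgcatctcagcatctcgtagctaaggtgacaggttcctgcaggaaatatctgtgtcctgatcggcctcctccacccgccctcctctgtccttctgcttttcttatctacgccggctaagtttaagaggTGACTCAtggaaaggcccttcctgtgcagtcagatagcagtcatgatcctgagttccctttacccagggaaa

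The motifs were the kappaB consensus, TGANTCA for AP-1, the core GAGGAA of PU.1 sites, the interferon-stimulated element core GAAANNGAAA, and TTGCNNAA for C/EBP. Among 32851 mouse promoters of the same length they were present in 4.51%, 7.81%, 28.3%, 3.44% and 10.8%. The Fpr2 sequence held 1 PU.1 core on the minus strand, its first base 19 bases before the start, and that of C3ar1 held 1 AP-1 match, 22 bases before the start. In the C5ar2 sequence there were 2 C/EBP matches, 210 and 166 bases before the start. The Fpr1 and C5ar1 sequences held no match to any of the 5, which says only that these letters are absent from these windows. Promoters of 8 of the 10 members were in the table, without Cfb and C1qa.

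Under LPS, Fpr1, Fpr2, C5ar1 and C3ar1 all rose against untreated cells, and with the antibody alone C5ar1 rose. The rise of Fpr1 under LPS did not pass the test in 6 of 19 alternatives, nor that of C5ar1 with antibody alone in 9 of 23. When the antibody was added to LPS, Fpr1 and Fpr2 rose further and C3ar1 fell, while C5ar1 passed the test for a rise only narrowly, the call being lost in 15 of 23 alternatives. A gene was called when its adjusted p in limma, fitted on log2(FPKM + 1) over all genes and adjusted with the Benjamini-Hochberg method, was under 0.05. All 4 members that passed the filter were called higher under LPS, beside 49.8% of all genes tested called in either direction, 16.6% higher and 33.1% lower. With antibody alone 1 was called higher, beside 0.146% of all genes. For LPS plus anti-CD36 against LPS, 3 were called higher and 1 lower, beside 7.35% and 8.14% of all genes and 15.5% in either direction. Against antibody alone 4 were higher, beside 47.5% in either direction, 16.3% higher and 31.3% lower. Fpr1 and Fpr2 reached 1 FPKM only in libraries with LPS, Fpr1 only in those with both agents, so their passing the filter already fixed part of these differences, and nothing is read from the counts of 4. The libraries of the 2 groups did not overlap for any of the 4 members under LPS, all higher, beside 16.7% of tested genes higher and 32.9% lower without overlap. For LPS plus anti-CD36 against LPS the same held for 3 higher and 1 lower, beside 19.7% and 16.4%, and against antibody alone for 4 higher, beside 21.6% and 42.3%.

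**Figure D1:**
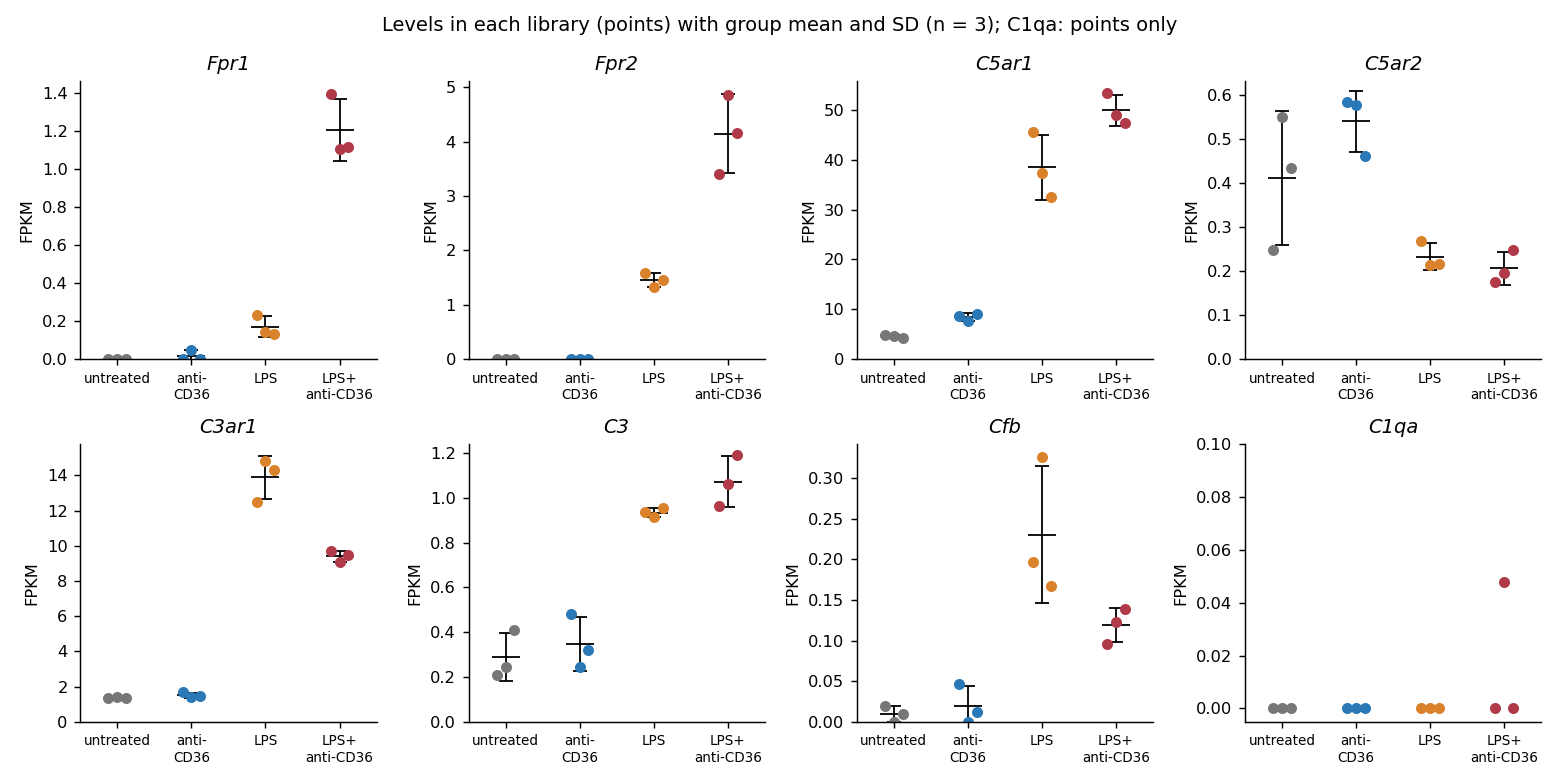
FPKM of 8 of the 10 genes (vertical axes, each on its own scale) in the 4 groups (horizontal axes), with 1 point per library and the group mean and SD (n = 3), except C1qa, shown as points only. Fpr1, Fpr2, C5ar1, C3ar1, C3 and Cfb sit higher in all 3 LPS libraries than in all 3 untreated ones, and C3ar1 and Cfb are lower in the libraries with both agents than in those with LPS alone.

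Fpr1, the high-affinity receptor for formyl peptides, was listed at 0 in all 3 untreated libraries. With anti-CD36 it was at 0, 0.0501 and 0 FPKM, the single value above 0 standing for 2 counts. LPS libraries held 0.234, 0.144 and 0.134 FPKM, from 10, 6 and 6 counts, and those with both agents 1.39, 1.11 and 1.12 FPKM, from 68, 59 and 72 counts. The 3 libraries with both agents lay above all others, and the 3 with LPS alone lay above all without LPS. Against a floor of 3 counts per library, the LPS mean of 0.17 ± 0.055 FPKM (SD, n = 3) was at least 2.84-fold higher than the untreated one. On the log2(FPKM + 1) scale, which understates changes of low genes, that difference was 0.23 (SE 0.079, limma adjusted p = 0.0325). Adding the antibody to LPS gave a 7.08-fold higher mean, 1.21 ± 0.162 FPKM (SD, n = 3), and a difference of 0.91 (SE 0.079, limma adjusted p = 2.77e-05). Only the first of these calls was lost in alternatives, with adjusted p from 0.0542 to 0.0921 when LPS replicate 1, LPS replicate 2 or any 1 of the untreated libraries was left out and 0.068 in a fit of these 2 groups alone. With any 1 LPS plus anti-CD36 library left out, or with the filter on 6 libraries, Fpr1 did not pass and was not tested. Its call for the antibody on top of LPS could not be lost in those runs. Only the libraries with both agents brought Fpr1 past the filter.

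Fpr2, which binds formyl peptides with lower affinity and also serum amyloid A and annexin A1, was at 0 in all 6 libraries without LPS. In LPS libraries it stood at 1.58, 1.32 and 1.46 FPKM (66, 54 and 64 counts), and with both agents at 3.41, 4.87 and 4.16 FPKM (163, 254 and 262 counts). The libraries with both agents lay above those with LPS alone, as for Fpr1. The LPS mean, 1.45 ± 0.127 FPKM (SD, n = 3), was at least 23.7-fold above the untreated floor, and the fitted difference was 1.29 (SE 0.0973, limma adjusted p = 5.61e-07). With both agents the mean was 2.86-fold that of LPS alone, a difference of 1.06 (SE 0.0973, limma adjusted p = 4.40e-05), and at least 58.2-fold above antibody alone. These calls held in every alternative run. Only libraries with LPS brought Fpr2 past the filter, which already fixed part of its difference from those without LPS. The libraries with both agents were deeper, 36861332 to 48637089 counts against 31516389 to 33881061 with LPS alone, and FPKM is scaled by depth. The summed neutrophil markers of these 2 groups, mostly Csf3r, overlapped. Whether depth or cell make-up had a part in the difference was not tested. Fpr2 overlaps on the same strand the annotated gene Fpr3, which was listed at 0 in all libraries, so how reads were divided between the 2 is uncertain.

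Levels of the 2 formyl peptide receptors can be set against each other per transcript length. Fpr2 stood 6.74, 9.19 and 10.9 times as high as Fpr1 in the LPS libraries, and 2.45, 4.40 and 3.72 times as high with both agents. The 2 sets of ratios did not overlap, an exact two-sided permutation p of 0.1, which is the smallest that 3 libraries against 3 can give. The ratios with LPS alone rest on only 6 to 10 counts of Fpr1.

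C5ar1, the main G protein-coupled receptor for C5a, was the most abundant of the 10 genes in every group. Untreated libraries held 4.85, 4.65 and 4.28 FPKM, anti-CD36 libraries 8.69, 7.63 and 9.07, LPS libraries 45.6, 37.3 and 32.6, and those with both agents 53.3, 49.0 and 47.3. No 2 of the 4 groups overlapped, in the order untreated, anti-CD36, LPS and both. LPS raised the mean 8.38-fold, from 4.59 ± 0.291 to 38.5 ± 6.58 FPKM (SD, n = 3), a log2 difference of 2.81 (SE 0.114, limma adjusted p = 2.97e-09). The antibody alone raised it 1.84-fold, to 8.46 ± 0.746 FPKM (SD, n = 3), a difference of 0.76 (SE 0.114, limma adjusted p = 0.0318). C5ar1 was the member called in that comparison, in which 0.341% of all genes were called in either direction. The call was lost in 9 of 23 alternatives, 8 of which left out 1 library (anti-CD36 replicate 1 or 3, LPS replicate 2, any of LPS plus anti-CD36, untreated replicate 2 or 3), with adjusted p up to 0.193, and in the fit of the 2 groups alone it was 0.174. The log2 difference itself stayed between 0.69 and 0.88.

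Adding the antibody to LPS moved the C5ar1 mean 1.30-fold, to 49.9 ± 3.12 FPKM (SD, n = 3), a log2 difference of 0.38 (SE 0.114, limma adjusted p = 0.0454). In the alternatives that ended this call the adjusted p was up to 0.166, although the difference was positive in each, from 0.26 to 0.50. Libraries whose removal ended it were LPS replicates 2 and 3, all 3 of LPS plus anti-CD36, anti-CD36 replicates 1 and 3 and untreated replicate 2. The LPS change in the presence of antibody was 5.89-fold (2.43, limma adjusted p = 9.90e-09). It was smaller by 0.38 on the log2 scale than the change without antibody, which did not pass the test of the difference (limma adjusted p = 0.515).

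**Figure D2:**
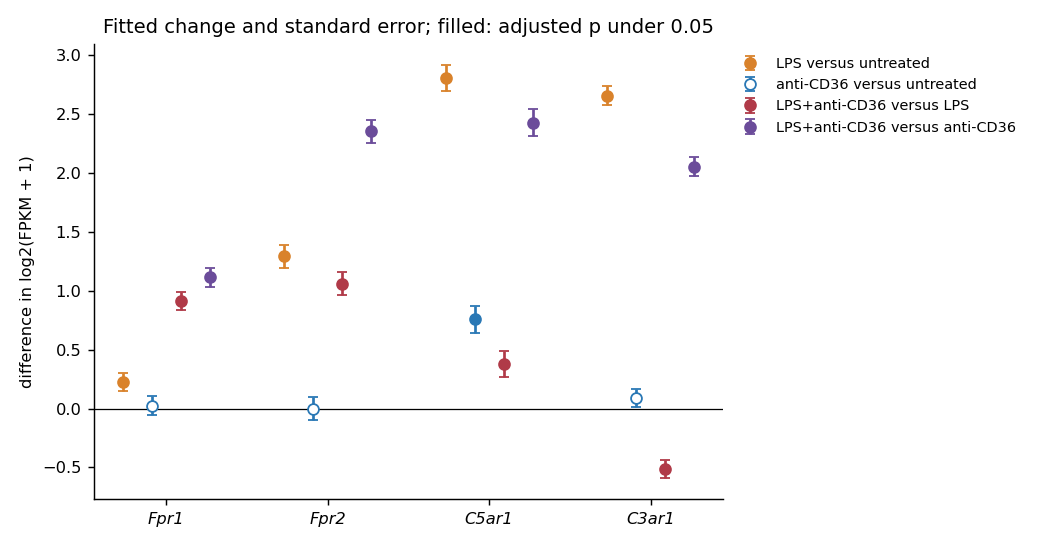
Fitted differences in log2(FPKM + 1) with their standard errors (vertical axis) for the 4 genes that passed the filter (horizontal axis), in 4 comparisons shown by colour, with filled points for an adjusted p under 0.05. C3ar1 is the only gene below 0, at -0.51 for LPS plus anti-CD36 against LPS, and C5ar1 the only one with a filled point for antibody alone.

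C5ar2, the second C5a receptor, was low throughout, and its means were lower in both groups with LPS than in both without. It was at 0.249, 0.551 and 0.435 FPKM in untreated libraries, 0.584, 0.578 and 0.461 with anti-CD36, 0.269, 0.214 and 0.215 with LPS, and 0.175, 0.195 and 0.248 with both, each value resting on 23 to 79 counts. Untreated replicate 1 fell inside the LPS range, so those 2 groups overlapped (1.77-fold lower mean with LPS, exact two-sided permutation p = 0.2). With both agents the mean was 0.206 ± 0.0377 FPKM against 0.541 ± 0.0693 with antibody alone (SD, n = 3), 2.62-fold lower, and these groups did not overlap (exact p = 0.1). Without the filter on low values limma called this difference (log2 difference -0.35, adjusted p = 0.00327) but not that of LPS against untreated cells (-0.19, adjusted p = 0.0649). A small nuclear RNA gene, Gm26473, overlaps C5ar2.

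The ratio of C5ar1 to C5ar2 set both receptors of C5a in 1 number for each library. It was 19.5, 8.43 and 9.82 in untreated cells, 14.9, 13.2 and 19.7 with anti-CD36, 169, 174 and 151 with LPS, and 304, 251 and 190.5 with both agents. Every library with LPS had a ratio above every library without it, and those with both agents lay above those with LPS alone (exact two-sided permutation p = 0.1). The ratios with LPS rest on 23 to 43 counts of C5ar2 per library. C5ar2 itself overlapped between the LPS groups (exact two-sided permutation p = 0.4). The untreated and anti-CD36 ratios overlapped.

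**Figure D3:**
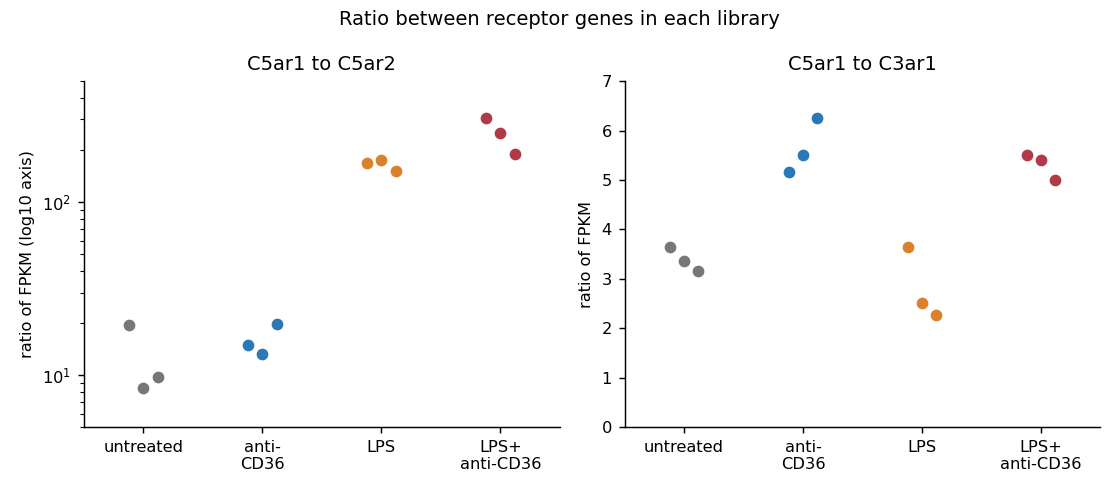
Ratio of FPKM between receptor genes in each library (1 point each) by group, C5ar1 to C5ar2 on a log10 axis at left and C5ar1 to C3ar1 on a linear axis at right. The left ratio runs from 8.43 to 19.7 without LPS and from 151 to 304 with it, while the right one is higher in the 6 libraries with antibody (4.99 to 6.26) than in the 6 without (2.27 to 3.65).

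C3ar1, the receptor for C3a, was higher under LPS and stood lower when the antibody was added to LPS. Its levels were 1.33, 1.38 and 1.35 FPKM untreated, 1.68, 1.39 and 1.45 with anti-CD36, 12.5, 14.8 and 14.3 with LPS and 9.69, 9.06 and 9.48 with both agents. All LPS libraries lay above all libraries with both agents, which in turn lay above all those without LPS. LPS raised the mean 10.2-fold, from 1.35 ± 0.0265 to 13.9 ± 1.23 FPKM (SD, n = 3), a log2 difference of 2.66 (SE 0.0785, limma adjusted p = 1.86e-10). Antibody alone gave 1.51 ± 0.155 FPKM (SD, n = 3), a difference of 0.09 that did not pass the test (limma adjusted p = 0.499), although its 3 libraries lay above the untreated ones. Non-overlap of that kind and direction was found for 2 of the 4 members, C5ar1 being the other, and for 12.1% of all genes tested, with 10.5% lower. With both agents the mean was 9.41 ± 0.324 FPKM (SD, n = 3), 1.48-fold lower than with LPS alone, and C3ar1 fell by 0.51 on the log2 scale (SE 0.0785, limma adjusted p = 0.00173), a call that held in every alternative run. It was still 6.25-fold higher than with antibody alone (limma adjusted p = 1.66e-09).

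The ratio of C5ar1 to C3ar1 separated the libraries by antibody. C5ar1 stood 3.65, 3.36 and 3.17 times as high as C3ar1 in untreated cells and 3.65, 2.51 and 2.27 times with LPS. With anti-CD36 alone the ratio was 5.17, 5.50 and 6.26, and with both agents 5.50, 5.41 and 4.99. In both settings the antibody libraries lay above those without (exact two-sided permutation p = 0.1 each). The ratio was examined after the values of both genes had been seen.

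The complement components among the members, C3, Cfb and the C1q genes, were low in these cells. C3 was at 0.208, 0.246 and 0.409 FPKM untreated, 0.481, 0.245 and 0.319 with anti-CD36, 0.938, 0.913 and 0.953 with LPS and 0.965, 1.06 and 1.19 with both. The LPS libraries lay above the untreated ones by 3.25-fold in the mean, and those with both agents above antibody alone by 3.08-fold, in each case with an exact two-sided permutation p of 0.1. In limma without the filter both differences were called (0.59 and 0.62 on the log2 scale, adjusted p = 0.0002 and 0.000145). The antibody added to LPS gave a 1.15-fold higher mean, non-overlapping, that was not called without the filter (adjusted p = 0.488).

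Cfb, factor B, was counted 3, 0 and 1 times in untreated libraries and 5, 0 and 1 times with antibody alone. LPS libraries had 18, 29 and 16 counts (0.197, 0.326 and 0.167 FPKM), and those with both agents 10, 14 and 19 (0.0960, 0.123 and 0.138 FPKM). All libraries with LPS thus exceeded all without it, and those with both agents lay below those with LPS alone. Over the pooled counts and depths, the LPS level was 19.4 times the untreated one, with an exact 95% interval of 7.21 to 73.4 that covers counting error only. The untreated side of that ratio rests on 4 counts, 3 of them in replicate 1, and without that library the ratio was 42.7 (7.38 to 1712). Without the filter, limma called LPS against untreated cells (0.28, adjusted p = 0.000461). The mean with both agents was 1.93-fold lower than with LPS. Over the pooled counts and depths that ratio was 0.53, with an exact 95% interval of 0.351 to 0.794 that again covers counting error only. The log2 difference of -0.13 was not called (limma without the filter, adjusted p = 0.0844) and was -0.08 without LPS replicate 2, the highest library. Cfb overlaps the annotated genes Gm20547 and Mir6972, so its counts are uncertain by any reads shared with them.

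The 3 C1q genes, a cluster of 18675 bases on chr4 in the annotation, were not detected beyond a trace. C1qb and C1qc were listed at 0 in all 12 libraries, and C1qa was at 0 in 11, with 2 counts (0.0478 FPKM) in LPS plus anti-CD36 replicate 2. A count of 0 allowed up to 0.0959 FPKM for C1qa, 0.0917 for C1qb and 0.0517 for C1qc at the shallowest library. Counts of these genes therefore give no comparison between groups at this depth. In all, of the 6 members outside the filter, 2 were higher without overlap under LPS (C3 and Cfb), beside 7.87% of the genes outside it higher and 8.53% lower. None was non-overlapping with antibody alone, where 2.54% were higher and 4.40% lower. For LPS plus anti-CD36 against LPS, 1 was higher (C3) and 1 lower (Cfb), beside 3.65% and 5.73%. Against antibody alone 2 were higher (C3 and Cfb) and 1 lower (C5ar2), beside 8.73% and 9.10%.

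For the 4 tested members the LPS change was also compared between antibody-treated and other cells. The interaction, the LPS change with antibody minus that without, was called positive for Fpr1 and Fpr2 and negative for C3ar1, beside 0.496% and 0.788% of all genes. Fpr1 had 0.89 (limma adjusted p = 0.0018), Fpr2 1.06 (adjusted p = 0.0021) and C3ar1 -0.60 (adjusted p = 0.0215). For Fpr1 and Fpr2 both groups without LPS were at or under the floor, so the interaction repeats the difference between the 2 LPS groups and says no more than it. The call for Fpr1 was also lost with a pseudocount of 0.1 (limma adjusted p = 0.0714). On the log scale of counts, in limma-voom on the recovered counts, none of the 3 passed (adjusted p = 0.774, 0.882 and 0.0876). That of C3ar1 was lost in 12 of 22 alternatives, with adjusted p up to 0.0978. The removals that ended it were anti-CD36 replicates 1 and 3, LPS replicates 2 and 3, any library with both agents, and untreated replicates 1 and 2.

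Other genes of these systems were taken from lists by role, and their fitted medians are given beside those of all genes: -0.14 for LPS against untreated, -0.01 for antibody alone, 0.02 for LPS plus anti-CD36 against LPS and -0.12 against antibody alone. Limma called 16.6% of all genes higher and 33.1% lower under LPS, and 7.35% and 8.14% with the antibody on top of LPS. With antibody alone it called 0.341% in either direction. The counts of called genes in the lists were not tested against these shares. Of 22 further activation components, 3 passed the filter. Cfp, properdin, which stabilises the alternative-pathway convertase, rose under LPS from 86.8 ± 21.3 to 181 ± 43.8 FPKM (SD, n = 3; 1.06 on the log2 scale, limma adjusted p = 0.00133). Fcna, a ficolin that starts the lectin pathway, fell by 0.47 (limma adjusted p = 0.042), a call lost under median-of-ratios scaling. The list's median was 0.26 under LPS (0.09 under TPM scaling, where 6 passed the filter). With the antibody, alone or on top of LPS, limma called none of the 3. At an unadjusted p under 0.05 there was 1 with antibody alone and 0 on top of LPS, and limma-voom called 0 in both.

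Among 15 regulators, which keep complement from attacking the host's own cells, 4 passed the filter and 2 rose under LPS. Both rose again when the antibody was added, and the list's medians were 0.34 and 0.41. Under TPM scaling, where 5 of the list passed the filter, the medians were -0.03 and 0.23. Cd59a, which blocks the membrane attack complex, was at 1.74 ± 0.215 FPKM untreated, 2.29 ± 0.276 with anti-CD36, 3.97 ± 0.23 with LPS and 7.27 ± 0.779 with both (SD, n = 3). Its log2 differences were 0.86 for LPS (limma adjusted p = 1.76e-05) and 0.73 for antibody on top of LPS (adjusted p = 0.000685). Clu, clusterin, an extracellular chaperone that also inhibits the attack complex, stood at 0.383 ± 0.0376, 0.345 ± 0.0658, 1.26 ± 0.28 and 2.15 ± 0.316 FPKM in the same order (SD, n = 3). Its differences were 0.70 (limma adjusted p = 0.000161) and 0.48 (adjusted p = 0.0116).

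Receptors through which phagocytes take up complement-coated particles, with proteins that bind C1q, made a list of 8 with 5 tested. Under LPS 3 rose and 1 fell, with a median of 0.80. Itgam, the alpha chain of complement receptor CR3, went from 5.50 ± 0.928 to 24.7 ± 3.46 FPKM (SD, n = 3; 1.98, limma adjusted p = 8.51e-07). Itgax, the alpha chain of CR4, rose by 0.80 and their shared beta chain Itgb2 by 0.95 (limma adjusted p = 6.30e-06 and 2.32e-06). The endocytic receptor Lrp1 fell by 0.46 under LPS and by 0.55 more when the antibody was added (limma adjusted p = 0.00119 and 0.00269). Itgb2 rose by 0.31 with the antibody on top of LPS (limma adjusted p = 0.0303), lost under TPM scaling, so that 1 of the 5 was higher and 1 lower there, with a median of 0.25 (0.13 under TPM scaling).

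Of the 9 other formyl peptide receptor genes and agonists, 2 passed the filter, both agonists of Fpr2 and both higher under LPS. Saa3, a serum amyloid A, went from 0.443 ± 0.0837 to 16.9 ± 5.4 FPKM, and Anxa1, annexin A1, from 58.0 ± 4.62 to 91.8 ± 10.9 (SD, n = 3). Their log2 differences were 3.60 and 0.65 (limma adjusted p = 2.53e-08 and 0.000317). Adding the antibody to LPS gave 24.0 ± 3.71 and 105 ± 9.64 FPKM (SD, n = 3), and limma called neither (adjusted p = 0.0873 and 0.225). At an unadjusted p under 0.05 there was 1 of the 2, and limma-voom called 0.

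The G proteins, arrestins, kinases and RGS proteins that chemoattractant receptors act through were the largest list, 22 genes with 20 tested. Under LPS 4 rose and 4 fell, beside 49.8% of all genes called in either direction. With the antibody on top of LPS 3 rose and 3 fell, beside 15.5%. The list's medians were -0.04 and 0.14. Under TPM scaling the medians were -0.06 and 0.04, and under median-of-ratios scaling 0.11 and 0.16. Rgs16, of the RGS proteins that shorten G protein signals, went from 13.2 ± 0.456 to 208 ± 11.7 FPKM under LPS and to 281 ± 24.3 with both agents (SD, n = 3). Rgs1 went from 4.16 ± 0.652 to 26.5 ± 4.35 FPKM and, with both, to 10.9 ± 1.15 (SD, n = 3). It fell by 1.20 between the LPS groups (limma adjusted p = 0.000311). Rgs2 stood at 16.2 ± 1.21, 27.5 ± 2.7 and 16.6 ± 1.09 FPKM in the same groups (SD, n = 3), and fell by 0.69 between the LPS groups (limma adjusted p = 0.0029). Its libraries with both agents overlapped the untreated ones, while those of Rgs1 did not.

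Arrb1, beta-arrestin 1, which uncouples and internalises activated receptors, had 14.4, 16.5 and 16.5 FPKM untreated, 11.0, 12.3 and 11.4 with anti-CD36, 11.1, 11.4 and 12.4 with LPS and 3.70, 3.30 and 3.54 with both. Its libraries with both agents lay below all others, and it fell by 1.49 from LPS alone (limma adjusted p = 1.05e-06). The interaction was negative and called for Arrb1 (-1.07, limma adjusted p = 0.000511), Rgs1 (-1.48, adjusted p = 0.00281) and Rgs2 (-0.84, adjusted p = 0.0303). These were 3 of the 20 genes, beside 0.788% of all genes, and the call of Rgs2 was lost under TPM scaling. Under TPM scaling the calls of Rgs16 and Grk5 for antibody on top of LPS were lost, and under median-of-ratios scaling those of Rac2 there and of Gnai2 under LPS. Grk6, a receptor kinase, fell by 0.83 under LPS (limma adjusted p = 2.75e-05). With antibody alone limma called none of the 20 and limma-voom 0, while 4 had an unadjusted p under 0.05.

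**Figure D4:**
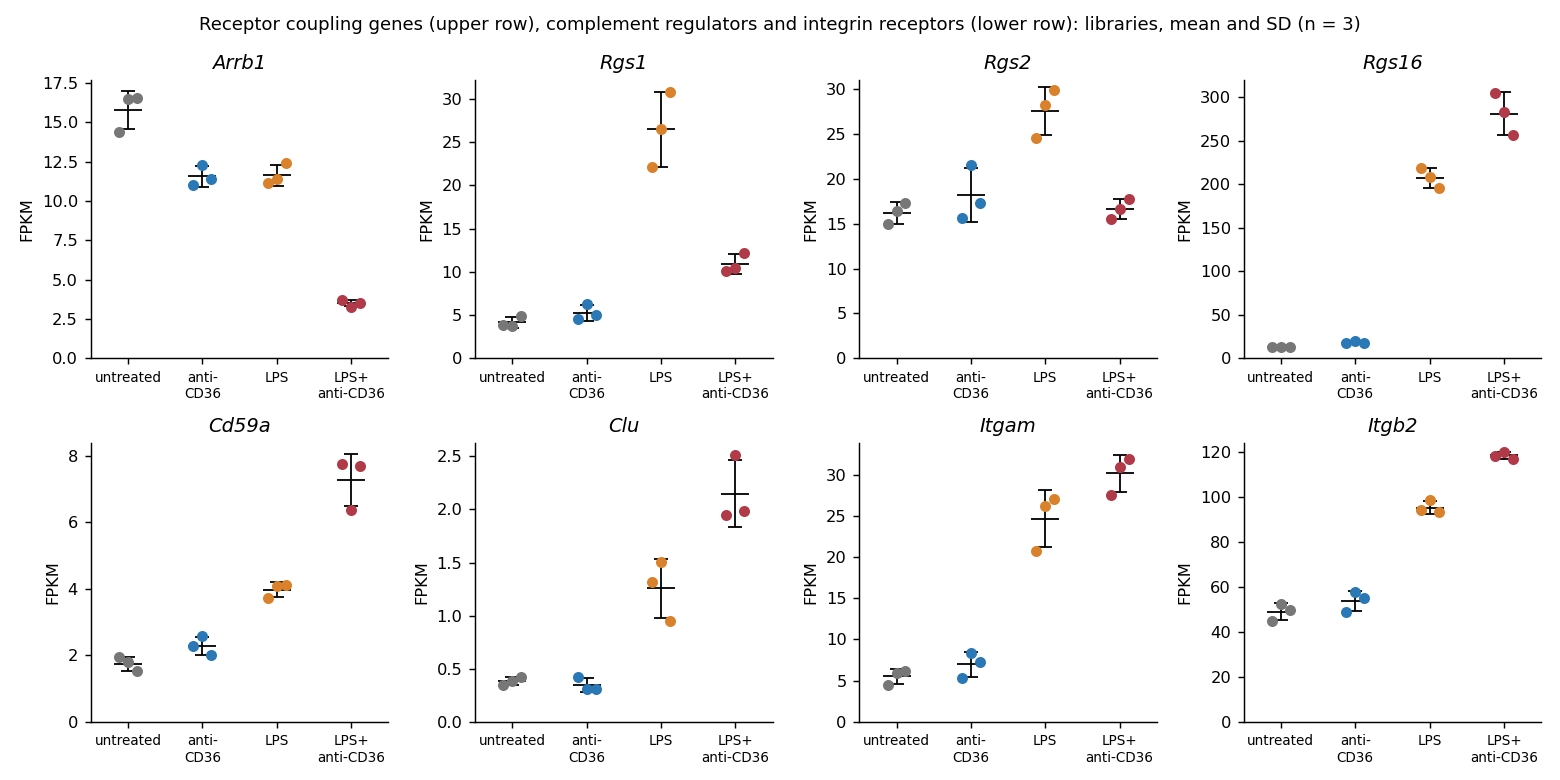
FPKM (vertical axes, each on its own scale) of 4 genes of receptor coupling (upper row) and of 2 complement regulators and the 2 CR3 chains (lower row) in the 4 groups, with 1 point per library and the group mean and SD (n = 3). Arrb1 lies between 3.30 and 3.70 FPKM in the libraries with both agents and between 11.0 and 16.5 in all others, and Cd59a, Clu and Itgb2 are higher with both agents than with LPS alone.

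Other leukocyte chemoattractant receptors, 18 genes of which 7 passed the filter, included 4 that rose and 1 that fell under LPS, with a median of 1.19 (0.48 under TPM scaling, where 9 passed the filter). Hcar2, a receptor for hydroxybutyrate and niacin, went from 1.11 ± 0.133 to 32.3 ± 0.975 FPKM, and Ccrl2, which binds chemerin without signalling, from 0.283 ± 0.0997 to 7.28 ± 1.3 (SD, n = 3). Ccr1, a receptor for CC chemokines, rose from 2.24 ± 0.427 to 8.56 ± 0.621 FPKM and stood lower with both agents, at 5.66 ± 0.742 (SD, n = 3). Between the LPS groups Ccr1 fell by 0.53 on the log2 scale (limma adjusted p = 0.0103), while Ccrl2 rose by 0.55 and Cxcr3 by 0.40 (adjusted p = 0.0135 and 0.0447). The last 2 calls were lost under TPM scaling. Cxcr3, a receptor for interferon-induced chemokines, was the 1 that fell by 0.42 under LPS (limma adjusted p = 0.0134), a call lost under median-of-ratios scaling. Gpr84, a receptor for medium-chain fatty acids, rose by 1.19 under LPS (limma adjusted p = 3.66e-05). With antibody alone limma and limma-voom called 0 of this list, and 2 genes had an unadjusted p under 0.05. Limma likewise called 0 regulators and 0 phagocytic receptors with antibody alone, 1 of each list having an unadjusted p under 0.05, and 0 of the formyl peptide list, with none at that p. Limma-voom called 0 of these 3 lists.

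Genes whose pattern lay nearest to each tested member were sought among 9396 protein-coding genes, by the root mean square distance between their mean log2(FPKM + 1) differences from untreated cells in the 3 treated groups. The measure describes likeness over these 4 groups, all sharing the untreated libraries. Because this scale understates changes of low genes, a low gene such as Fpr1 lies close to other low genes more readily. Distances are therefore not comparable between members. Nearest to Fpr1 were Il11 (distance 0.02), Il1f9 (0.0424) and Cd247 (0.0459). Fpr2 had Adora2b (0.107), Bcl2a1b (0.162) and Arl5c (0.183) nearest. C5ar1 was nearest to Odc1 (0.156), Oasl1 (0.203) and Ltb (0.212), and C3ar1 to Cdkn1a (0.0335), Sesn2 (0.0999) and Oasl2 (0.14).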

How the data were processed

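RNA from RAW264.7 cells was sequenced in 12 libraries, 3 in each of 4 groups taken from the labels' treatment field. The authors deposited 1 table of FPKM values, 31801 entries by gene symbol. The aligner was HISAT2 2.0.5, per the submitters' processing notes, which also name the builds mm39 and hg38 with no role. The counting tool, annotation, strandedness and filters are not given in the sources used here.

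The values of 16698 of 18143 genes above 0 (92%) were whole multiples of 1 count in every library at the GENCODE M21 exon length (tolerance 0.01 counts), as were all 10 members, and this gave depths and counts. Even counts made up 63.6% to 70.4% of genes at 1 to 12 counts, so the unit may be single mates rather than fragments, which was not tested and would make counting intervals and floors too narrow. Repeated symbols (82 entries) were left out, keeping the row of highest mean. Il6 held the values of Gm10874 in 6 libraries and was left out except between the LPS groups.

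Values were analysed as log2(FPKM + 1). Genes at 1 FPKM or more in at least 3 libraries (10277, or 10276 without Il6) entered 1 limma fit of the 4 group means (limma 3.58.1, R 4.3.3), with an intensity trend and Benjamini-Hochberg adjustment over all genes. Members outside the filter were compared by exact two-sided permutation tests (scipy 1.17.1). Floors are 3 counts per library, and intervals and floors cover counting error only. The fit was tested on simulated data. Alternatives were pseudocount 0.1, no filter, a filter on 6 libraries, TPM and median-of-ratios scaling, no trend, a replicate block, removal of GC and length trends, 2-group fits and leaving out each library. Limma-voom on recovered counts, pseudocount 0.1 without a filter and the Cfb count ratio with a library left out were added after seeing the data. All members are named, and from each pathway list up to 4 called genes of smallest p. The members and the gene lists were chosen with earlier results of these data known, so patterns already seen there carry no independent support.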

Additional observations from a re-analysis of the deposited data

Results flagged for a closer look

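The interaction, the LPS change with anti-CD36 minus that without, passed limma's test on the log2(FPKM + 1) scale for 3 members. It was 0.889 for Fpr1 and 1.06 for Fpr2. Both groups without LPS were at or under the floor for these 2 genes, so these values restate the difference between the LPS groups and do not show that the LPS change itself depended on the antibody. For C3ar1 the interaction was -0.601. On the log scale of recovered counts none of the 3 passed.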

How the results depend on the processing

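No called difference of a member changed direction in any alternative run, while the small differences of C3 and Cfb with antibody alone and the interaction of C3, none of them called, changed sign in some. Calls that held in all 23 alternatives were those of Fpr2, C5ar1 and C3ar1 for LPS against untreated and for LPS plus anti-CD36 against antibody alone, and of Fpr2 and C3ar1 for LPS plus anti-CD36 against LPS. Those of Fpr1 in the last 2 comparisons held in the 19 in which it was tested. None of these 19 left out a library with both agents, and only those libraries brought Fpr1 past the filter. Fpr2 passed it only through libraries with LPS. The 4 members called under LPS were 3 to 4 with a library left out and 3 to 6 in the other alternatives (6 by limma-voom). The 1 call with antibody alone became 0 in the 2-group fit of limma (1 at an unadjusted p under 0.05) and 0 to 1 with a library left out, and limma-voom called 1. Of the 4 for LPS plus anti-CD36 against LPS, 2 to 4 were called with a library left out. Against antibody alone the 4 became 7 without the filter, 7 with limma-voom and 7 with pseudocount 0.1 and no filter, since C5ar2, C3 and Cfb then entered, and 3 to 4 with a library left out. Of 3 interactions, limma-voom called 0 (2 at an unadjusted p under 0.05), and 1 to 3 were called with a library left out.

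Over all genes, antibody alone gave 35 calls, 18 under TPM scaling, 438 with GC and length trends removed, 18 with pseudocount 0.1 and no filter, and 0 in the 2-group fit (1716 at an unadjusted p under 0.05, 30 by limma-voom). Leaving out a library gave 1 (anti-CD36 replicate 3, untreated replicate 2 or 3) to 131 (LPS replicate 1). LPS plus anti-CD36 against LPS gave 1592, 2498 with trends removed, 940 in the 2-group fit, and 551 to 3970 with a library left out (LPS plus anti-CD36 replicate 2, LPS replicate 1). The interaction gave 132, 403 with trends removed, 67 by limma-voom, 86 with pseudocount 0.1 and no filter, and 61 to 157 with a library left out. Median-of-ratios scaling moved the median of all genes from -0.14 to -0.01 for LPS against untreated and from -0.12 to -0.01 against antibody alone, and the calls from 1710 higher and 3403 lower to 2320 and 2244, and from 1670 and 3212 to 2260 and 2214. Under it, antibody alone gave 12 higher and 25 lower against 15 and 20, and under TPM scaling 11 and 7. TPM scaling also gave 369 higher and 788 lower for LPS plus anti-CD36 against LPS (755 and 837 as deposited) and 30 and 79 for the interaction (51 and 81). The cause of these shifts was not tested.

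A replicate block raised the calls to 1164 for antibody alone, 3646 for LPS plus anti-CD36 against LPS and 212 for the interaction, and changed no member's call. Of 18 pairs of libraries with the same replicate number, 10 correlated by over 0.1 in their deviations from the group means (-0.318 to 0.811). All pairs of replicate 1 were positive (0.446 to 0.784). Those of replicate 3 among untreated, LPS and LPS plus anti-CD36 ran from 0.545 to 0.811, but pairs of replicate 2 from -0.318 to 0.433. Some libraries of unlike number correlated too, as anti-CD36 replicate 2 with untreated replicate 3 (0.69). Whether the numbers mark a shared culture or batch cannot be told from these values.

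Depth limits the C1q genes, Cfb and Fpr1 without both agents, which rest on 0 to 29 counts per library.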

Other observations

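Cd93, a surface receptor once described as a receptor for C1q, lay outside the filter and was chosen after its values had been seen. It was at most 0.0541 FPKM in the 6 libraries without LPS and 0.199 to 0.349 FPKM in the 6 with it, so the libraries with LPS lay above all without.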
